A study of Mus musculus with 4 samples.

Results

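NRF2, encoded by Nfe2l2, is the transcription factor that switches on the antioxidant program of the cell. The genes described here are Nfe2l2, its inhibitor Keap1 and 36 antioxidant and detoxifying genes, 38 in all, in AT2 cells sorted from bleomycin-injured mouse lung. They were taken by gene symbol from a list of genes of this function. All 38 were found among the 40092 genes of the count table, and all 38 were among the 16661 genes that had enough counts to be tested.

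The study asked what loss of Alkbh5, an enzyme that removes the m6A mark from RNA, does to AT2 cells, the surfactant-secreting progenitors of the alveolus. By the paper's methods, the 2 Ctrl libraries came from Alkbh5 flox/+ mice and the 2 A5-CKO libraries from Alkbh5 flox/flox littermates. The deposited labels call the Ctrl libraries WT and do not give their genotype. Both genotypes also carried Sftpc-CreERT2, a tamoxifen-inducible recombinase, and the Rosa26-mTmG reporter, which turns recombined cells green. Mice of both genotypes were given tamoxifen and then bleomycin, a drug that injures the alveolar epithelium, and GFP+ cells were sorted from the lung by FACS at day 14. The Ctrl cells therefore carried the Cre, the reporter and 1 floxed Alkbh5 allele as well, and no uninjured group entered the comparison. Sftpc-CreERT2 acts in cells that expressed Sftpc when tamoxifen was given, so the GFP+ gate also kept their descendants of other states. The labels name the libraries of a genotype as replicates and do not say how many mice each held, so the p-values measure the spread between these libraries.

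In resting cells KEAP1 holds NRF2 in the cytoplasm and directs its degradation. Oxidants and electrophiles modify KEAP1, and NRF2 then accumulates, pairs with small MAF proteins and binds the antioxidant response element (ARE) in front of its target genes. Its targets make and recycle glutathione and thioredoxin, supply NADPH, store iron and conjugate and export toxic products, and the lung epithelium, which meets inhaled oxygen, relies on this program.

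The core of the ARE, TGACNNNGC, was looked for on both strands in the 250 bases before each gene's starts in RefSeq (GRCm38.p6), of which some genes have several. A window was at hand for 32 of the 38 genes, and none for Hmox1, Gclc, Gsr, Prdx6, Sod3 and Abcc1, which were not searched. Of the 32, 7 held a match (21.9%), against 11.5% of the 27025 genes with a window. The 7 were Nfe2l2, Gclm, Txnrd1, Prdx1, G6pdx, Sod1 and Mt2. In RNA level, 1 of them was higher in both A5-CKO libraries (Txnrd1), 3 were lower in both (Prdx1, G6pdx and Sod1) and 3 overlapped between the genotypes. Sequences of 4 of them are shown because these 4 share the motif and differ in how their RNA compared between genotypes. The ARE core is in capitals, as is, in Mt2, TGCGCNC, 1 form of the metal response element core, which did not overlap it. Other forms of the metal response element core were not looked for. The windows are Txnrd1 at chr10:82858956-82859205, Prdx1 at chr4:116685349-116685598, Sod1 at chr16:90220512-90220761 and Mt2 at chr8:94172368-94172617, all on the plus strand of GRCm38.p6, and each is written 5′ to 3′ up to the base before the start. Txnrd1 has 3 windows, and the one shown precedes a start that lies inside the gene; the other 2, the one before the gene's first base among them, held no match.
Txnrd1: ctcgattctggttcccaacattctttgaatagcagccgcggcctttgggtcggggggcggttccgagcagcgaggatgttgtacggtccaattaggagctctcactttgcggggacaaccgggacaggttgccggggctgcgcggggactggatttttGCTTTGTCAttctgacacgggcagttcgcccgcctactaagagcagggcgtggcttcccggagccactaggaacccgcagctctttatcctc
Prdx1: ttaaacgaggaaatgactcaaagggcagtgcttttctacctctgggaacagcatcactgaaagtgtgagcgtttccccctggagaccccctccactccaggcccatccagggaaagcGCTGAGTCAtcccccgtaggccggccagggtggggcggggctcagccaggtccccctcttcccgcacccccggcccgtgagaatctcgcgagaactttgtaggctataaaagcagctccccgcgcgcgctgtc
Sod1: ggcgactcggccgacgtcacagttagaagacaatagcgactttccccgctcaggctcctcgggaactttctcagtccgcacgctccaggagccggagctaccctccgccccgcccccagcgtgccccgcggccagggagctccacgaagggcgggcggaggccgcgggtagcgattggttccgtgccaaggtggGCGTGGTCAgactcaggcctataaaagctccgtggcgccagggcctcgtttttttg
Mt2: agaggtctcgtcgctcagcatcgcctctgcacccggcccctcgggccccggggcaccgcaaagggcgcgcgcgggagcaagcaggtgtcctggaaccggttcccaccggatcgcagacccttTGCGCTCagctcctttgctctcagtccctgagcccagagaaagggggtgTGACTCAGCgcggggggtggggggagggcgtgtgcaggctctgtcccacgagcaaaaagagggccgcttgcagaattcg
Counted back from the start, the ARE core lay at -92 to -84 in Txnrd1, -133 to -125 in Prdx1, -56 to -48 in Sod1 and -79 to -71 in Mt2. It read TGACTCAGC in both Prdx1 and Mt2, on the minus strand in Prdx1 and on the plus strand in Mt2. The TGCGCNC match of Mt2 lay at -128 to -122, and 6 of the 32 genes (18.8%) held a match to this form, against 14% of all genes with a window. These matches describe letters in a window and are not measured binding sites.

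The libraries held 18144865 to 20811757 counts. Values below are normalized counts (CPM, counts relative to library size), scaled by TMM factors of 0.933 and 0.860 for the Ctrl and 1.11 and 1.13 for the A5-CKO libraries, and log2 fold changes are A5-CKO over Ctrl from edgeR's quasi-likelihood test. Alkbh5 itself had 81.7 and 152 CPM in the Ctrl libraries and 19.3 and 36.6 CPM in the A5-CKO libraries (log2 fold change -2.06, standard error 0.46). The AT2 label was checked on 9 AT2 markers, whose summed level was 54162 and 77463 CPM in the Ctrl and 40075 and 32999 CPM in the A5-CKO libraries, and all 9 had a negative log2 fold change. Of 8 markers of AT1 cells, the flat cells that AT2 cells give rise to, Ager and Pdpn had at most 17 counts in any library, while 6 were expressed and had a median log2 fold change of 0.69. Hopx, Cav1, Akap5 and Clic5 were higher and Aqp5 lower in both A5-CKO libraries. The libraries also differed within genotypes. The summed level of 10 macrophage and monocyte markers was 958 CPM (Ctrl 1) and 195 CPM (Ctrl 2) against 251 CPM (A5-CKO 1) and 1297 CPM (A5-CKO 2), and 8 of the 10 had a positive log2 fold change. The sum of 7 mesenchymal markers ran the same way, with 425, 155, 98.7 and 1102 CPM in that order, as did that of 6 B and plasma cell markers, with 2176, 404, 532 and 2295 CPM. That last sum was mostly Igkc and Jchain, whereas Cd79a, Cd79b and Ighm were lower in both A5-CKO libraries. In bulk RNA of sorted cells, fewer cells of a type and less RNA per cell cannot be told apart.

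No antioxidant gene differed between genotypes at an adjusted p under 0.05, and none of the 16661 tested genes did (0%; edgeR quasi-likelihood test with Benjamini-Hochberg adjustment), the lowest adjusted p among the 38 being 0.528. At an unadjusted p under 0.05, 5 of the 38 were called (13.2%, against 9.18% of all tested genes). Of these, 1 was higher in A5-CKO (Txnrd2; 4.48% of all tested genes were called so) and 4 were lower (Txn2, Prdx2, Tkt and Sod1; 10.5%, against 4.71% of all tested genes). DESeq2 with its default filtering gave an adjusted p for 37 of the 38, and 0 of these were under 0.05. It called 28 genes higher (0.183%) and 31 lower (0.203%) among the 15306 for which it gave one.

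In direction the 38 genes leaned to lower levels in A5-CKO. Of their log2 fold changes, 26 were negative and 12 positive, with a median of -0.34, against -0.02 over all tested genes. The 2 A5-CKO libraries were both below the 2 Ctrl libraries for 17 of the 38 (44.7%), against 23.5% of all tested genes, and above them for 3 (7.89%), against 20.3%. The 17 lower genes included 5 peroxiredoxins, 2 superoxide dismutases, the glutathione peroxidases Gpx1 and Gpx4, both thioredoxins, 4 enzymes of NADPH supply, Fth1 and Keap1, and the 3 higher ones were Gclc, Txnrd1 and Txnrd2. The median depended on the scaling and on single libraries. On total counts alone, the median was -0.03 for the 38 genes and 0.30 for all genes, and without Ctrl 1 it was 0.02 and 0.11. Signs depended on the scaling too, with 20 negative and 18 positive log2 fold changes on total counts alone. Whether libraries lay below or above each other, here and in later paragraphs, was read only on the TMM-scaled values. The summed AT2 markers given above were also lower in both A5-CKO libraries, as was the sum of 5 club and ciliated cell markers (2883 and 2794 CPM in Ctrl, 2011 and 1277 CPM in A5-CKO; all 5 with a negative log2 fold change), while 4 of the 6 expressed AT1 markers were higher in both. The part of these cell types in the antioxidant values was not tested.

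**Figure D1:**
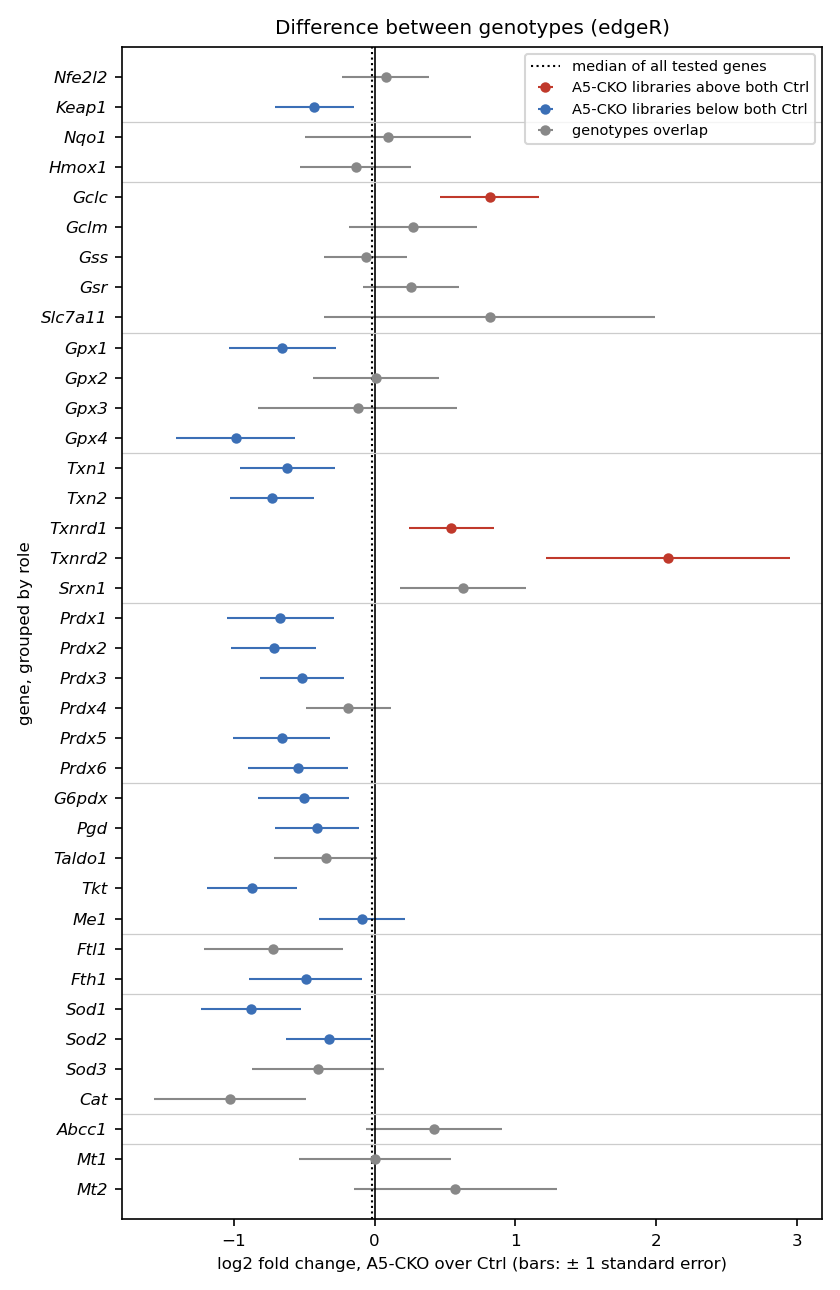
Log2 fold change of each of the 38 genes, A5-CKO over Ctrl, from edgeR, with bars of 1 standard error and genes grouped by role on the vertical axis. Colour shows whether both A5-CKO libraries lay above both Ctrl libraries (3 genes), below them (17 genes) or overlapped them (18 genes), and the dotted line is the median of all tested genes.

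Nfe2l2 RNA (chr2:75675513-75704663, GRCm38.p6) was nearly level on the TMM-scaled values. It had 316 and 345 CPM for Ctrl 1 and 2 against 366 and 333 CPM for A5-CKO 1 and 2, and the groups overlapped (log2 fold change 0.08, standard error 0.31). On total counts alone its log2 fold change was 0.40 (standard error 0.31). NRF2 is controlled chiefly through the stability of its protein, which was not measured here. Keap1, the adaptor that hands NRF2 to a ubiquitin ligase, had 94.8 CPM in Ctrl 1 and 108 CPM in Ctrl 2, compared with 74.0 CPM in A5-CKO 1 and 76.6 CPM in A5-CKO 2. Each A5-CKO library was below each Ctrl library, and the log2 fold change was -0.43 (standard error 0.28, unadjusted p = 0.169, edgeR). Of 11 other regulators of the pathway, 3 were higher and 2 lower in both A5-CKO libraries (20.3% and 23.5% of all tested genes were). At an unadjusted p under 0.05 in edgeR, 1 was higher and 0 lower (4.48% and 4.71% of all tested genes were). That gene was Cul3, the scaffold of the KEAP1 ligase, with 84.4 and 78.0 CPM in the Ctrl libraries and 141 and 125 CPM in the A5-CKO libraries (log2 fold change 0.71, standard error 0.28, unadjusted p = 0.0399 and adjusted p = 0.528, edgeR). Rbx1, the RING subunit of the same ligase, was lower in both A5-CKO libraries, with 159 and 109.9 CPM in the Ctrl libraries and 90.9 and 88.8 CPM in the A5-CKO libraries (log2 fold change -0.58, standard error 0.31). Nfe2l1, a factor related to NRF2, had 334 and 424 CPM in the Ctrl libraries and 283 and 287 CPM in the A5-CKO libraries, and Mafg, one of its small MAF partners, had 83.9 and 92.4 CPM in the Ctrl libraries and 111 and 93.9 CPM in the A5-CKO libraries. The 11 regulators had a median log2 fold change of 0.13, so the list did not lean the way the 38 genes did. Their transcripts ran from 1675 nucleotides (Rbx1) to 8882 (Bach2), with Cul3 at 4709, against a median of 2133.5 for the 38 genes. Over all genes, longer transcripts had higher log2 fold changes, as given below, and the part of length in this contrast was not tested.

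Nqo1 and Hmox1, by which NRF2 activity is often read, did not separate the genotypes. Of other targets given below, Gclc and Txnrd1 were higher in both A5-CKO libraries, while Gclm and Srxn1 overlapped. Nqo1, a quinone reductase, had 8.04 and 4.83 CPM for Ctrl 1 and 2 against 4.30 and 9.45 CPM for A5-CKO 1 and 2. Hmox1, which breaks down heme, had 222 CPM in Ctrl 1 and 176 CPM in Ctrl 2, compared with 124 CPM in A5-CKO 1 and 239 CPM in A5-CKO 2. For both genes the highest and the lowest library were the 2 A5-CKO libraries, and the log2 fold changes were 0.10 (standard error 0.59) and -0.13 (standard error 0.40). Among 13 other tested NRF2 targets, 0 passed an unadjusted p of 0.05 in edgeR in either direction, 5 were lower and 2 higher in both A5-CKO libraries (23.5% and 20.3% of all tested genes were), and the median log2 fold change was -0.32. Of these, Blvrb, a biliverdin reductase, had 71.4 and 45.8 CPM in the Ctrl libraries and 28.5 and 39.1 CPM in the A5-CKO libraries (log2 fold change -0.80, standard error 0.36). Osgin1, an oxidative stress-induced growth inhibitor, had 144 and 159.5 CPM in the Ctrl libraries and 108 and 103 CPM in the A5-CKO libraries. Aldh3a1, an aldehyde dehydrogenase, had 11.6 and 10.7 CPM in the Ctrl libraries and 6.34 and 7.48 CPM in the A5-CKO libraries. These 3 genes were each lower in both A5-CKO libraries, whereas Aox1, aldehyde oxidase, had 25.4 and 39.8 CPM in the Ctrl libraries and 93.2 and 31.1 CPM in the A5-CKO libraries and overlapped.

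Of the genes of glutathione synthesis and recycling, 1 of 5 was higher in both A5-CKO libraries (20.3% of all tested genes were). Gclc (chr9:77754535-77794489), the catalytic subunit of glutamate-cysteine ligase and the rate-limiting enzyme of glutathione synthesis, had 520.3 and 677 CPM for Ctrl 1 and 2 against 1039.6 and 1070.3 CPM for A5-CKO 1 and 2. The 2 A5-CKO libraries lay close together and above both Ctrl libraries, at 599 ± 111 CPM in Ctrl and 1055 ± 21.7 CPM in A5-CKO (mean ± SD, n = 2 each). This was a 1.76-fold difference (log2 fold change 0.82, standard error 0.35, unadjusted p = 0.0527 and adjusted p = 0.528, edgeR). Leaving out any 1 library gave a log2 fold change of 0.70 to 0.98, and the unadjusted p was under 0.05 in 9 of the 11 alternatives that kept all 4 libraries and in 0 of the 4 that left 1 out. Gclm, the modifier subunit of the same enzyme, did not share this pattern. It had 33.5 CPM in Ctrl 1 and 21.5 CPM in Ctrl 2, compared with 21.5 CPM in A5-CKO 1 and 44.8 CPM in A5-CKO 2 (log2 fold change 0.27, standard error 0.45), so that Ctrl 1 and A5-CKO 2 were the high libraries. Per kilobase of transcript, Gclc averaged 242 and Gclm 5.43 CPM over the 4 libraries, the 10th and 33rd highest levels of the 38 genes.

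The other 3 genes of this role overlapped between the genotypes. Slc7a11, the cystine importer, had 12.9 and 0.465 CPM for Ctrl 1 and 2 against 7.97 and 15.6 CPM for A5-CKO 1 and 2, on counts of 218, 8, 176 and 364. Ctrl 2 stood apart as the low library, and the log2 fold change moved from 0.82 (standard error 1.17) to 4.71 without Ctrl 1 and to -0.17 without Ctrl 2. Gss, glutathione synthetase, and Gsr, glutathione reductase, had log2 fold changes of -0.06 and 0.26. The 22 partner genes of glutathione and thiol metabolism gave 0 higher and 3 lower at an unadjusted p under 0.05 in edgeR (4.48% and 4.71% of all tested genes), with 8 lower in both A5-CKO libraries and 0 higher in both (23.5% and 20.3% of all tested genes) and a median log2 fold change of -0.21. Ggt5, a gamma-glutamyl transferase, had 51.4 and 109 CPM in the Ctrl libraries and 35.5 and 20.9 CPM in the A5-CKO libraries (log2 fold change -1.51, standard error 0.46, unadjusted p = 0.0136, edgeR). Oplah, 5-oxoprolinase of the glutathione cycle, had 217 and 223 CPM in the Ctrl libraries and 129.9 and 103 CPM in the A5-CKO libraries (log2 fold change -0.92, standard error 0.30, unadjusted p = 0.0194, edgeR). Msra, which repairs oxidized methionine, had 45.1 and 46.3 CPM in the Ctrl libraries and 22.6 and 26.7 CPM in the A5-CKO libraries (log2 fold change -0.89, standard error 0.31, unadjusted p = 0.0246, edgeR). In all 3 the A5-CKO libraries lay below the Ctrl libraries, as did those of Txndc17, a thioredoxin-like protein, with 92.8 and 60.7 CPM in the Ctrl libraries and 48.9 and 50.1 CPM in the A5-CKO libraries.

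**Figure D2:**
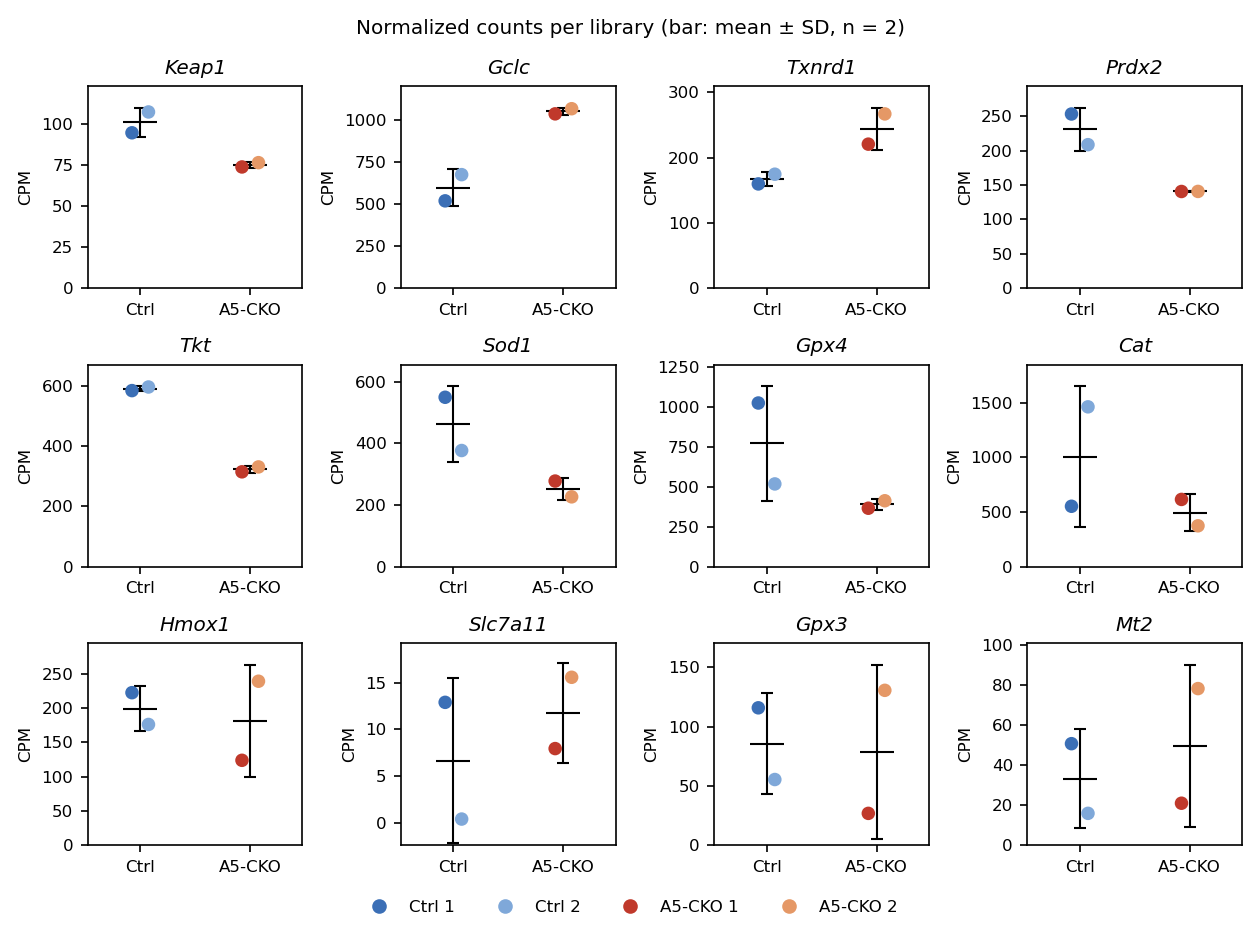
Normalized counts (CPM) of 12 antioxidant genes in each library, with the mean and SD of each genotype (n = 2); every vertical axis includes 0. Gclc and Txnrd1 were higher and Keap1, Prdx2, Tkt, Sod1 and Gpx4 lower in both A5-CKO libraries, Cat was high in Ctrl 2 alone, and Hmox1, Slc7a11, Gpx3 and Mt2 were highest in A5-CKO 2.

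The glutathione peroxidases split by gene. Gpx4 (chr10:80047166-80056439), the selenoenzyme that reduces lipid hydroperoxides in membranes and guards against ferroptosis, had 1027 CPM in Ctrl 1 and 519 CPM in Ctrl 2, compared with 366 CPM in A5-CKO 1 and 413 CPM in A5-CKO 2. Both A5-CKO libraries were lower, by 1.98-fold in the fitted means (log2 fold change -0.99, standard error 0.42, unadjusted p = 0.0523 and adjusted p = 0.528, edgeR). Ctrl 1 and Ctrl 2 themselves differed 1.98-fold, and without Ctrl 1 the log2 fold change was -0.35. Gpx1, the main cytosolic glutathione peroxidase, had 811 and 560.0 CPM for Ctrl 1 and 2 against 358 and 512 CPM for A5-CKO 1 and 2, again with both A5-CKO libraries lower (log2 fold change -0.66, standard error 0.38). Gpx3, the secreted form, had 116 CPM in Ctrl 1 and 55.4 CPM in Ctrl 2, compared with 26.8 CPM in A5-CKO 1 and 131 CPM in A5-CKO 2, which placed A5-CKO 1 lowest and A5-CKO 2 highest, and Gpx2, the epithelial form, was near level at a log2 fold change of 0.01 (standard error 0.45). These peroxidases are selenoproteins, and 12 other genes that use selenium, make selenoproteins or are selenoproteins themselves were examined beside them. Of these, 8 were lower and 0 higher in both A5-CKO libraries (23.5% and 20.3% of all tested genes were), 0 passed an unadjusted p of 0.05 in edgeR, and the median log2 fold change was -0.48. Sephs2, which makes the selenium donor, had 94.6 and 111 CPM in the Ctrl libraries and 66.4 and 68.6 CPM in the A5-CKO libraries (log2 fold change -0.61, standard error 0.28, unadjusted p = 0.0671, edgeR). Selenok, a selenoprotein of the endoplasmic reticulum, had 191 and 116 CPM in the Ctrl libraries and 102 and 79.3 CPM in the A5-CKO libraries (log2 fold change -0.76). Scly, selenocysteine lyase, and Selenow, a small selenoprotein, had log2 fold changes of -0.66 and -0.63.

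In the thioredoxin system, the thioredoxins and their reductases lay on opposite sides. Txn1, the cytosolic thioredoxin, had 410.5 and 288 CPM for Ctrl 1 and 2 against 246 and 209 CPM for A5-CKO 1 and 2 (log2 fold change -0.62, standard error 0.34). Txn2, the mitochondrial thioredoxin, had 128 CPM in Ctrl 1 and 115 CPM in Ctrl 2, compared with 63.1 CPM in A5-CKO 1 and 83.9 CPM in A5-CKO 2 (log2 fold change -0.73, standard error 0.30, unadjusted p = 0.0462 and adjusted p = 0.528, edgeR). Both thioredoxins were thus lower in both A5-CKO libraries. Txnrd1 (chr10:82833951-82897724), the cytosolic reductase that regenerates Txn1 and whose promoter is printed above, had 159.6 and 174 CPM for Ctrl 1 and 2 against 221 and 267 CPM for A5-CKO 1 and 2. Here both A5-CKO libraries were higher, at 167 ± 10.5 CPM in Ctrl and 244 ± 32.8 CPM in A5-CKO (mean ± SD, n = 2 each). The log2 fold change was 0.55 (standard error 0.30, unadjusted p = 0.116 and adjusted p = 0.566, edgeR). Txnrd2, the mitochondrial reductase, had the highest log2 fold change of the 38 genes and also the lowest level, 0.355 CPM in Ctrl 1 and 0.233 CPM in Ctrl 2, compared with 1.81 CPM in A5-CKO 1 and 0.727 CPM in A5-CKO 2. This rested on 6, 4, 40 and 17 counts, where 3 counts correspond to 0.128 to 0.177 CPM (log2 fold change 2.09, standard error 0.87, unadjusted p = 0.0474, edgeR). With so few reads its level is uncertain, and without A5-CKO 1 the log2 fold change was 1.28. Srxn1, sulfiredoxin, which repairs overoxidized peroxiredoxins, had 90.1 and 39.9 CPM for Ctrl 1 and 2 against 79.1 and 122 CPM for A5-CKO 1 and 2 (log2 fold change 0.63, standard error 0.45), so Ctrl 2 was low and the groups overlapped. Without Ctrl 2 the log2 fold change of Srxn1 was 0.12, and without Ctrl 1 it was 1.40.

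All 6 peroxiredoxins, abundant enzymes that reduce hydrogen peroxide, had negative log2 fold changes, with a median of -0.60. However, Prdx4 turned positive on total counts alone, with the GC and length correction described below, and without Ctrl 1. Of the 6, 5 were lower in both A5-CKO libraries. Prdx2, a cytosolic form, had 253 CPM in Ctrl 1 and 209 CPM in Ctrl 2, compared with 140.5 CPM in A5-CKO 1 and 141 CPM in A5-CKO 2 (log2 fold change -0.72, standard error 0.30, unadjusted p = 0.0487 and adjusted p = 0.528, edgeR). The A5-CKO libraries were nearly equal and stood below both Ctrl libraries, and without Ctrl 1 the log2 fold change was -0.51. Prdx2 shares exon bases with Junb and Rnaseh2a on the opposite strand. Prdx1, another cytosolic form, had 1088 and 667 CPM for Ctrl 1 and 2 against 548 and 556 CPM for A5-CKO 1 and 2 (log2 fold change -0.67, standard error 0.38). Its A5-CKO libraries were also close together, but Ctrl 1 alone stood far above, and without Ctrl 1 the log2 fold change was -0.21. Prdx6, which is prominent in AT2 cells and also acts in surfactant phospholipid turnover, had 1012 CPM in Ctrl 1 and 956 CPM in Ctrl 2, compared with 573 CPM in A5-CKO 1 and 780.0 CPM in A5-CKO 2 (log2 fold change -0.54, standard error 0.35). The mitochondrial Prdx3 had 167 and 136 CPM for Ctrl 1 and 2 against 96.2 and 116 CPM for A5-CKO 1 and 2 (log2 fold change -0.51). Prdx5, found in mitochondria and peroxisomes, had 309.7 CPM in Ctrl 1 and 202 CPM in Ctrl 2, compared with 149 CPM in A5-CKO 1 and 175 CPM in A5-CKO 2 (log2 fold change -0.66), and it overlaps Trmt112 on the opposite strand. In these 3 forms too, both A5-CKO libraries were the low ones. Prdx4, the form of the endoplasmic reticulum, had a log2 fold change of -0.19 and overlapped between genotypes. Summed over the 6 genes, the level was 2933 and 2248 CPM in the Ctrl and 1577 and 1855 CPM in the A5-CKO libraries.

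The enzymes that supply NADPH, the electron source of both the glutathione and the thioredoxin system, also all had negative log2 fold changes, except that Me1 turned positive with upper-quartile factors and on total counts and Taldo1 without Ctrl 1. Tkt (chr14:30549131-30574724), transketolase of the non-oxidative pentose phosphate pathway, had 585 and 597 CPM for Ctrl 1 and 2 against 315 and 331 CPM for A5-CKO 1 and 2. The libraries of each genotype were close, at 591 ± 8.48 CPM in Ctrl and 323 ± 11.5 CPM in A5-CKO (mean ± SD, n = 2 each), a 1.83-fold lower level in A5-CKO (log2 fold change -0.87, standard error 0.32, unadjusted p = 0.0293 and adjusted p = 0.528, edgeR). This was the smallest unadjusted p of the 38 genes, and leaving out any 1 library gave a log2 fold change of -0.94 to -0.83. On total counts alone it was -0.55 (standard error 0.32). Exons of Tkt overlap Mir3076 on the same strand, which had 3204 counts over all libraries. G6pdx, which opens the oxidative branch and makes its first NADPH, had 156 CPM in Ctrl 1 and 166 CPM in Ctrl 2, compared with 90.2 CPM in A5-CKO 1 and 137 CPM in A5-CKO 2 (log2 fold change -0.50, standard error 0.33), and its exons overlap Ikbkg. Pgd, the second NADPH-producing enzyme of that branch, had 69.6 and 86.9 CPM for Ctrl 1 and 2 against 65.3 and 52.7 CPM for A5-CKO 1 and 2 (log2 fold change -0.41, standard error 0.30). Both were lower in both A5-CKO libraries. Taldo1, transaldolase, had a log2 fold change of -0.35 and overlapped. Me1, malic enzyme, had 329 CPM in Ctrl 1 and 322 CPM in Ctrl 2, compared with 306 CPM in A5-CKO 1 and 307 CPM in A5-CKO 2, so that its libraries did not overlap although the log2 fold change was only -0.09 (standard error 0.30).

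The 3 superoxide dismutases and catalase all had negative log2 fold changes, and none turned positive under the RLE, upper-quartile or total-count scaling. Without A5-CKO 1, however, Sod3 turned positive, at 0.064. Sod1 (chr16:90220762-90226333), the cytosolic dismutase, had 550.0 and 377 CPM for Ctrl 1 and 2 against 278 and 227 CPM for A5-CKO 1 and 2. Both A5-CKO libraries were lower, 1.84-fold in the fitted means (log2 fold change -0.88, standard error 0.35, unadjusted p = 0.0421 and adjusted p = 0.528, edgeR), and without Ctrl 1 the log2 fold change was -0.52. Sod2, the mitochondrial dismutase, had 235 CPM in Ctrl 1 and 184 CPM in Ctrl 2, compared with 165 CPM in A5-CKO 1 and 169.7 CPM in A5-CKO 2 (log2 fold change -0.33, standard error 0.30). Its A5-CKO libraries were lower too. Sod3, the extracellular dismutase, was low in A5-CKO 1 and alike in the other 3 libraries, with 21.0 and 22.6 CPM for Ctrl 1 and 2 against 10.1 and 23.0 CPM for A5-CKO 1 and 2. Cat, the catalase of peroxisomes, had the most negative log2 fold change of the 38 genes, -1.03 (standard error 0.54), from 552 CPM in Ctrl 1 and 1460.4 CPM in Ctrl 2, compared with 614 CPM in A5-CKO 1 and 373 CPM in A5-CKO 2. That value rested on the single high library Ctrl 2, without which the log2 fold change was -0.21.

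Ferritin, the iron store of the cell, gave the most abundant RNAs of the 38 genes. Per kilobase of transcript, Ftl1 averaged 2028 and Fth1 1396 CPM over the 4 libraries, ahead of Gpx4 at 606 and Sod1 at 558. Fth1, the heavy chain that oxidizes iron, had 2803 and 2071 CPM for Ctrl 1 and 2 against 1464 and 2006 CPM for A5-CKO 1 and 2, with both A5-CKO libraries below both Ctrl libraries (log2 fold change -0.49, standard error 0.40). Ftl1, the light chain, had 3397 CPM in Ctrl 1 and 1489 CPM in Ctrl 2, compared with 1265 CPM in A5-CKO 1 and 1701 CPM in A5-CKO 2 (log2 fold change -0.72, standard error 0.49). Ctrl 1 stood far above the other 3 libraries, and without Ctrl 1 the log2 fold change of Ftl1 was 0.06.

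**Figure D3:**
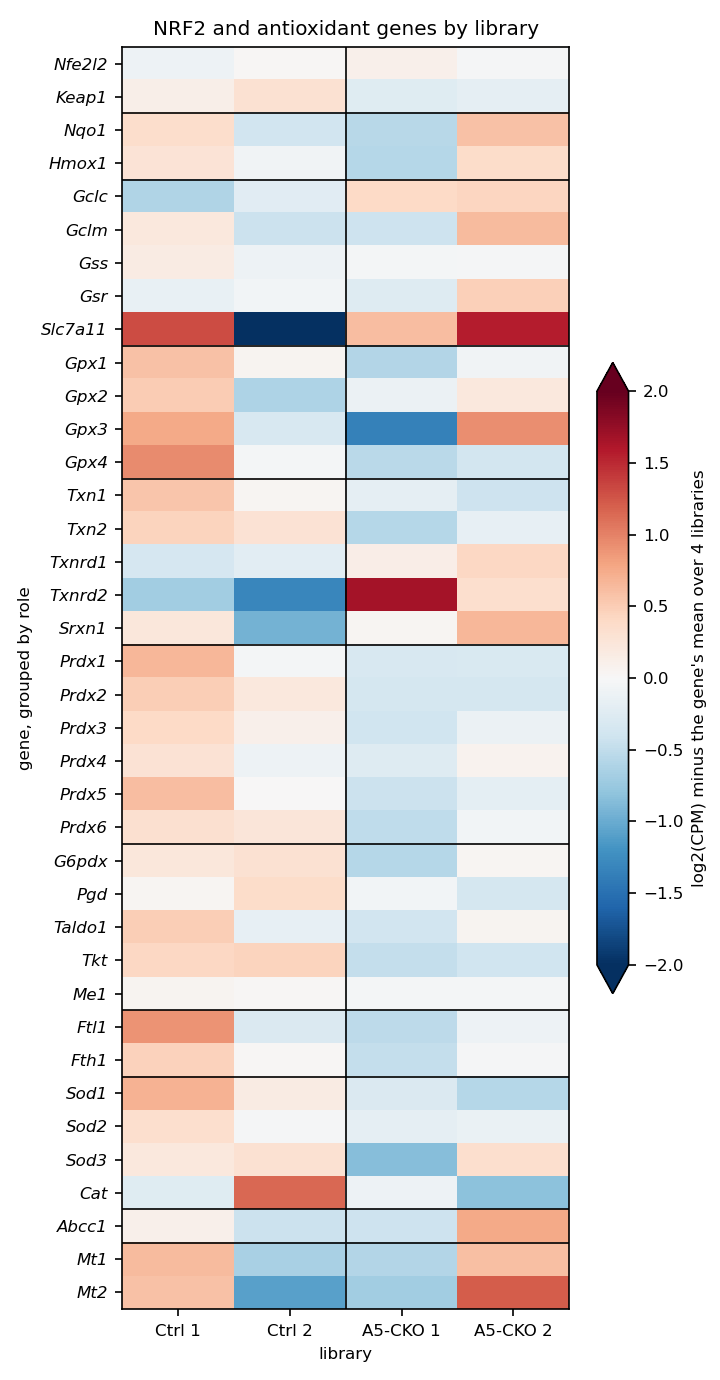
Each gene's log2(CPM) in each library, relative to that gene's mean over the 4 libraries, with genes grouped by role and the genotypes divided by a line; colours saturate at 2 in either direction. Peroxiredoxins, thioredoxins and NADPH supply are blue or near white in both A5-CKO columns, while Nqo1, Hmox1, Gclm, Slc7a11, Gpx3, Abcc1, Mt1 and Mt2 are red in both Ctrl 1 and A5-CKO 2.

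The metallothioneins and the exporter Abcc1 did not separate the genotypes. Mt1, a small metal-binding and radical-scavenging protein, had 125 and 51.3 CPM for Ctrl 1 and 2 against 53.4 and 123 CPM for A5-CKO 1 and 2. Mt2, its neighbour on chromosome 8, whose promoter is printed above, had 50.8 CPM in Ctrl 1 and 15.9 CPM in Ctrl 2, compared with 21.0 CPM in A5-CKO 1 and 78.3 CPM in A5-CKO 2. In both genes Ctrl 1 and A5-CKO 2 were high and Ctrl 2 and A5-CKO 1 low, and the log2 fold changes were -0.00011 (standard error 0.54) and 0.57 (standard error 0.72). Abcc1, which exports glutathione conjugates, lay between 14.1 and 32.0 CPM, with the same 2 libraries high. In all, 14 of the 38 genes (36.8%, against 15.6% of all tested genes) had Ctrl 1 and A5-CKO 2 both above Ctrl 2 and A5-CKO 1, namely Nqo1, Hmox1, Gclm, Gss, Slc7a11, Gpx2, Gpx3, Srxn1, Prdx4, Taldo1, Ftl1, Abcc1, Mt1 and Mt2. The summed macrophage, mesenchymal and B and plasma cell markers given above were high in the same 2 libraries, as were those of 7 transitional epithelial markers, at 4757, 2131, 2889 and 4507 CPM. The part of these cells in the 14 genes was not tested.

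In each genotype 1 library was the extreme for many of the genes. Ctrl 1 was the highest library for 19 of the 38 genes (50%), against 23.6% of all tested genes, and A5-CKO 1 was the lowest for 22 (57.9%), against 25.6%. The share of all counts that fell on the 38 genes was 1.52% (Ctrl 1) and 1.08% (Ctrl 2) against 1.06% (A5-CKO 1) and 1.29% (A5-CKO 2). The difference of their median from that of all genes was -0.32 with all libraries, -0.085 without Ctrl 1, -0.51 without Ctrl 2, -0.046 without A5-CKO 1 and -0.58 without A5-CKO 2. For genes low in both A5-CKO libraries, leaving out Ctrl 1 gave log2 fold changes of -0.30 for Gpx1, -0.28 for Txn1, -0.30 for Prdx3, -0.26 for Prdx5, -0.19 for Fth1 and -0.08 for Sod2, and leaving out A5-CKO 1 gave -0.35 for Prdx6 and -0.25 for G6pdx. Leaving out Ctrl 2 gave -0.94 for Gpx1, -0.90 for Txn1 and -0.98 for Prdx5, and leaving out A5-CKO 2 gave -0.81 for Prdx6 and -0.87 for G6pdx. A5-CKO 1 was also the library with the highest summed level of 7 tested genes of the dissociation stress response, 9482 CPM against 2271 to 4885 CPM in the other 3, and its part in the antioxidant values was not tested.

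**Figure D4:**
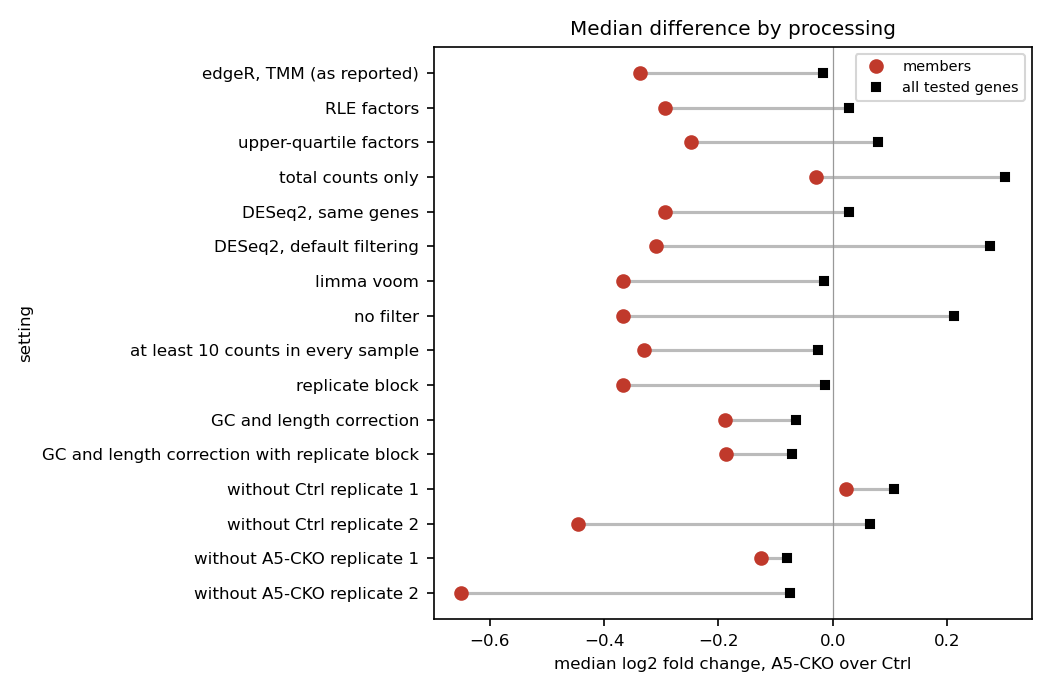
Median log2 fold change of the 38 genes (circles) and of all tested genes (squares) under each way of processing the counts, with 1 line for each setting. The circles lie to the left of the squares in all 16 settings shown, with a difference of -0.32 in the values reported and of -0.046 without A5-CKO replicate 1.

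Transcript length moved with the difference between genotypes. Over all tested genes the median log2 fold change went from -0.37 for transcripts under 1000 nucleotides to 0.30 for those over 5000, and the 38 genes were shorter than most, with a median of 2133.5 nucleotides against 2932.5. Within the class of 2000 to 3000 nucleotides, the 10 antioxidant genes had a median of -0.46, against -0.10 for all genes, and within the class of 1000 to 2000 the 12 antioxidant genes had -0.42, against -0.28. In the class of 3000 to 5000 the 6 had -0.24, against 0.04, in that under 1000 the 6 had -0.45, against -0.37, and in that over 5000 the 4 had 0.35, against 0.30. With each library corrected for GC content and transcript length, the median was -0.19 for the 38 genes and -0.06 for all. With this correction, edgeR called 2.55% of all tested genes higher and 4.45% lower at an unadjusted p under 0.05. In that fit, edgeR gave an unadjusted p under 0.05 for Gclc (log2 fold change 0.70) and Txnrd2 (2.28) above Ctrl and for Prdx1 (-0.87), Sod2 (-0.81) and Tkt (-0.74) below it, and no longer for Sod1 (-0.49), Prdx2 (-0.54) or Txn2 (-0.50).

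**Figure D5:**
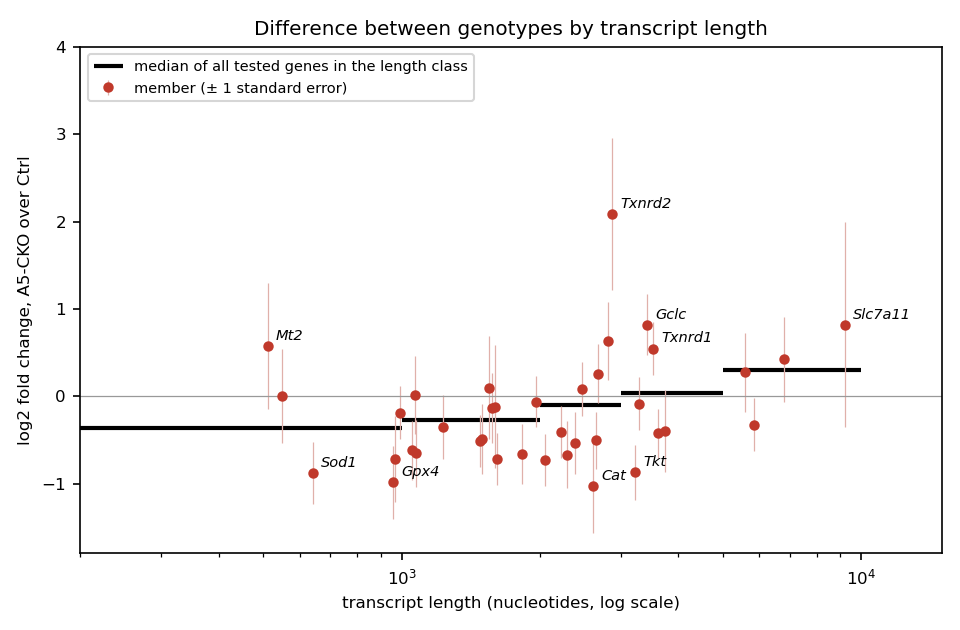
Log2 fold change of each of the 38 genes, A5-CKO over Ctrl, against the length of its transcript in nucleotides on a log scale, with bars of 1 standard error. Black lines mark the median of all tested genes in 5 length classes, from -0.37 for the shortest to 0.30 for the longest, and Tkt, Cat, Gpx4 and Sod1 lie below and Gclc, Txnrd1 and Txnrd2 above the line of their class.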

How the data were processed

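RNA-seq of the 2 Ctrl and 2 A5-CKO libraries, made with a SMARTER mRNA kit, was analysed from 1 table of read counts per gene deposited by the authors. The authors trimmed the reads (Trim Galore 0.6.10), removed ribosomal RNA reads, aligned the rest with HISAT2 2.2.1 to mm10, removed duplicates and counted with featureCounts 2.0.3. The text of the methods gives the counting under MeRIP-seq, which is read here as the RNA-seq counting. Whether counting used strand is not given in the sources used here, so overlapping genes are uncertain.

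All genes were fitted with edgeR 4.0.16 in R 4.3.3 (filterByExpr, TMM, glmQLFit, glmQLFTest), with Benjamini-Hochberg adjustment over 16661 genes and a threshold of 0.05. Standard errors are the log2 fold change over the square root of F. The common dispersion was 0.173. With 2 libraries against 2, a two-sided permutation test cannot give a p under 0.333. Alternatives were other scaling factors, DESeq2 1.42.0, limma 3.58.1 (voom), other filters, a replicate block, a per-library spline correction (4 degrees of freedom) for GC content and length, and leaving out each library. Floors of 3 counts cover counting error only.

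The members and lists were chosen with earlier results of these data known. Genes given by library are those whose libraries separate by genotype, those with an unadjusted p under 0.05 and the defining genes of each role, and of each other list the 4 with the smallest p. Cat, Ftl1, Gpx3, Slc7a11, Sod3 and Srxn1 were added after their values were seen. Positions and promoters are from RefSeq on GRCm38.p6, and transcript lengths and GC content, known for 92.6% of tested genes, from GENCODE M21.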

Additional observations from a re-analysis of the deposited data

How the results depend on the processing

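Of 568 log2 fold changes of the 38 genes over 15 alternatives, 517 kept their direction and 51, in 17 genes, did not. The other 21 genes kept theirs in every alternative that fitted them, 17 of them lower in A5-CKO and 4 higher (Gclc, Txnrd1, Txnrd2 and Srxn1). Txnrd2 was not fitted where at least 10 counts were required in every sample. The number of genes with an adjusted p under 0.05 was 0 in every alternative, and the lowest adjusted p was 0.286.

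At an unadjusted p under 0.05, 1 gene was higher and 4 lower as reported. RLE factors gave 2 and 1, upper-quartile factors 2 and 1, total counts 3 and 0, no filter 2 and 4, at least 10 counts in every sample 1 and 2, and the GC and length correction 2 and 3. Leaving out each library in turn gave 0 to 2 higher and 0 to 8 lower. The 8 without Ctrl 2 were Gpx4, Txn1, Prdx1, Prdx2, Prdx5, Tkt, Ftl1 and Sod1, and without A5-CKO 1 there were 0 in either direction. The median log2 fold change of the 38 genes was -0.029 on total counts, and -0.65 (without A5-CKO 2) to 0.023 (without Ctrl 1) with a library left out. The cause was not tested. Of all unadjusted calls, 48.8% were higher as reported, 66.8% with upper-quartile factors, 90.9% on total counts and 36.4% with the GC and length correction. Total counts moved the median of all genes to 0.30.

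The replicate number as a block gave 0 genes higher and 0 lower (2.38% and 2.15% of all tested genes). With the GC and length correction added, it gave 0 and 1 (1.02% and 1.84%). Same-numbered libraries correlated at -0.35 in their deviations from the genotype means, and the labels give no shared litter or day, so the libraries share only a number. Over all genes the block gave 396 higher and 358 lower, against 746 and 784.

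Mt1 had 0.044 with RLE factors, 0.087 with upper-quartile factors, 0.30 on total counts, 0.044 with DESeq2 on these genes and 0.030 with its default filtering, 0.016 with voom, 0.041 with at least 10 counts, 0.017 with the replicate block, and 0.51 and 0.47 with the GC and length correction without and with the block. Gss had 0.029 with upper-quartile factors, 0.25 on total counts, and 0.23 with the correction, with or without the block. Me1 had 0.0086 with upper-quartile factors and 0.23 on total counts. On total counts Hmox1 had 0.18, Gpx3 0.18 and Prdx4 0.12. With the GC and length correction, Hmox1 had 0.13 (0.074 with the block), Prdx4 0.049 (0.049), Gclm -0.18 (-0.27), Gpx3 0.23 and Nfe2l2 -0.0031. Gpx2 had -0.019 without a filter.

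With each library left out, the log2 fold change ranged from -0.0025 to 0.11 for Nfe2l2, -0.61 to 0.58 for Nqo1, -0.72 to 0.25 for Hmox1, -0.38 to 0.70 for Gclm, -0.24 to 0.14 for Gss, -0.19 to 0.57 for Gsr, -0.17 to 4.71 for Slc7a11, -0.49 to 0.75 for Gpx2, -1.70 to 0.60 for Gpx3, -0.40 to 0.078 for Prdx4, -0.68 to 0.082 for Taldo1, -1.23 to 0.058 for Ftl1, -1.15 to 0.064 for Sod3, -0.31 to 0.88 for Abcc1, -0.75 to 0.85 for Mt1 and -0.70 to 1.72 for Mt2. In these fits a lone library is assumed to vary like the pair of the other genotype.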

Other observations

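Genes of iron and metal handling outside the ferritins were mixed. Of 11 tested, 0 passed an unadjusted p of 0.05 in edgeR, 2 were higher and 3 lower in both A5-CKO libraries (20.3% and 23.5% of all tested genes were), and the median log2 fold change was -0.02. Slc11a2, an iron importer, had 78.6 and 125 CPM in the Ctrl libraries and 60.9 and 65.8 CPM in the A5-CKO libraries (log2 fold change -0.68, standard error 0.33). Cp, the ferroxidase ceruloplasmin, had 58.0 and 19.0 CPM in the Ctrl libraries and 66.1 and 77.6 CPM in the A5-CKO libraries, and Ireb2, an iron-sensing RNA-binding protein that controls ferritin translation, had 65.3 and 56.6 CPM in the Ctrl libraries and 87.9 and 73.7 CPM in the A5-CKO libraries. Slc11a2 was lower and Cp and Ireb2 were higher in both A5-CKO libraries. Slc39a14, a zinc and iron importer, had 12.0 and 6.46 CPM in the Ctrl libraries and 8.78 and 32.0 CPM in the A5-CKO libraries and overlapped.

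Genes of the NADPH oxidases, which produce superoxide and peroxide, had a median log2 fold change of 0.52 over 9 tested genes, with 0 at an unadjusted p under 0.05 in edgeR in either direction and 2 higher in both A5-CKO libraries (20.3% of all tested genes were). These 2 were Nox4, with 1.89 and 1.05 CPM in the Ctrl libraries and 2.40 and 3.16 CPM in the A5-CKO libraries, and Nox1, with 3.73 and 3.90 CPM in the Ctrl libraries and 6.29 and 4.87 CPM in the A5-CKO libraries, both at low levels. Cyba, the shared membrane subunit, had 444 and 151 CPM in the Ctrl libraries and 129.8 and 197 CPM in the A5-CKO libraries, and Cybb, the catalytic subunit of phagocytes, had 87.4 and 24.5 CPM in the Ctrl libraries and 44.6 and 116 CPM in the A5-CKO libraries. Cybb was high in Ctrl 1 and A5-CKO 2, the libraries with the higher sums of macrophage markers, and the part of macrophages in it was not tested.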
